A study of Drosophila melanogaster with 4 samples.

Results

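Genes that mark insect blood cells, together with the genes for the enzymes of melanization, were followed across all 4 libraries of a Drosophila larval glioma experiment. They were chosen by symbol from a list of 8: NimC1, NimC2, NimC4, Hml, eater, srp, PPO1 and PPO2. Of these, 7 had a row among the 11880 genes of the deposited table, and NimC4 was not analysed here. Poly-A RNA came from larval heads, and each group was 1 library. Glioma with Ca-alpha1T RNAi combined repo-Gal4 with the EGF receptor transgene UAS-dEGFR[L], the phosphoinositide 3-kinase transgene UAS-dp110[CAAX], UAS-Ca-alpha1T-RNAi against a calcium channel gene, the Gal80 transgene tub-Gal80[ts] and the marker UAS-myrRFP. Glioma with slo RNAi carried the same elements with UAS-Slo-RNAi, against a potassium channel gene, as its RNAi construct. Glioma carried them without an RNAi construct, and Control carried tub>Gal80[ts], repo>Gal4 and UAS-myrRFP alone. All groups shared the glial driver repo-Gal4, the temperature-sensitive Gal80 that restrains it, the red membrane marker, 3 days of egg laying at 25 °C and 5 days at 29 °C. The driver is active in glia, so blood cells are not the cells it is meant to reach, and a whole head also holds muscle, fat, imaginal disc and gland tissue. How many larvae each library pooled is not stated in the labels.

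Larval blood cells, or hemocytes, are mostly plasmatocytes, which are macrophages. A few are crystal cells, which store prophenoloxidases, and lamellocytes appear on wasp attack or stress. Plasmatocytes bind and engulf microbes and dying cells through receptors that include members of the Nimrod family, whose proteins carry repeated EGF-like modules. On wounding, crystal cells release prophenoloxidase, which proteases of the hemolymph activate so that melanin is laid down at the wound. The GATA factor Serpent is needed to make hemocytes and also the fat body.

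Total counts were 31594447 for Glioma with Ca-alpha1T RNAi, 32092414 for Glioma with slo RNAi, 38826243 for Glioma and 36932553 for Control. Levels are given as CPM, counts per 1e6 after scaling by the trimmed mean of M-values (TMM), which takes most genes as alike between libraries. Levels of different genes are compared only on the authors' FPKM, fragments per kilobase of transcript per 1e6. A log2 ratio is of scaled counts with a prior count of 0.5 added, which damps ratios of scarce genes. The construct gene Egfr stood at 962 CPM with Ca-alpha1T RNAi, 651 CPM with slo RNAi, 897 CPM in Glioma and 182 CPM in Control. Pi3K92E, which encodes dp110, had 880 CPM with Ca-alpha1T RNAi, 373 CPM with slo RNAi, 903 CPM in Glioma and 98.6 CPM in Control. The slo RNAi library thus held less of both than Glioma did, with log2 ratios of −0.46 for Egfr and −1.27 (−1.30 to −1.24) for Pi3K92E, and the part of this in the slo RNAi comparisons was not tested. The targets of the RNAi constructs differed by less than 2-fold. Ca-alpha1T stood at 16.6 CPM in the library labelled Ca-alpha1T RNAi and 19.1 CPM in Glioma, an order that turned round on total counts, FPKM and TPM. The gene slo stood at 25.0 CPM in the library labelled slo RNAi and 34.2 CPM in Glioma. Its log2 ratio was −0.45 (−0.59 to −0.32), lower beyond counting error. The defining markers of both nervous tissue lists were present, with 4 glia markers summing to 381, 416, 457 and 185 CPM and 4 neuron markers to 308, 308, 220 and 321 CPM in the order of the totals above. With 1 library a group no test between conditions was possible, and nothing here has a replicate check. A gene was called higher or lower when its ratio was at least 2-fold, when the exact 95% interval of the ratio excluded equality, and when 1 or both libraries held at least 10 counts. These intervals cover counting error only, not the spread between larvae. In a sample of whole heads, fewer hemocytes and less RNA per hemocyte cannot be told apart.

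The 7 genes were of low to middling abundance. Within a library their FPKM ranked between the 9.6th and the 59.9th percentile of all listed genes. All 7 had at least 51 counts in every library. On FPKM, PPO2 was the most abundant of them in Glioma at 10.4, followed by PPO1 at 7.11, Hml at 1.99, eater at 1.48, srp at 1.15, NimC1 at 0.815 and NimC2 at 0.362. In Control NimC2 led at 10.5 FPKM, with PPO2 at 5.19, PPO1 at 4.12, srp at 2.15, eater at 2.12, Hml at 1.11 and NimC1 at 0.837. NimC2 was therefore first of the 7 in Control and last in Glioma, while the other 6 kept NimC1 lowest and the prophenoloxidases highest in both.

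**Figure D1:**
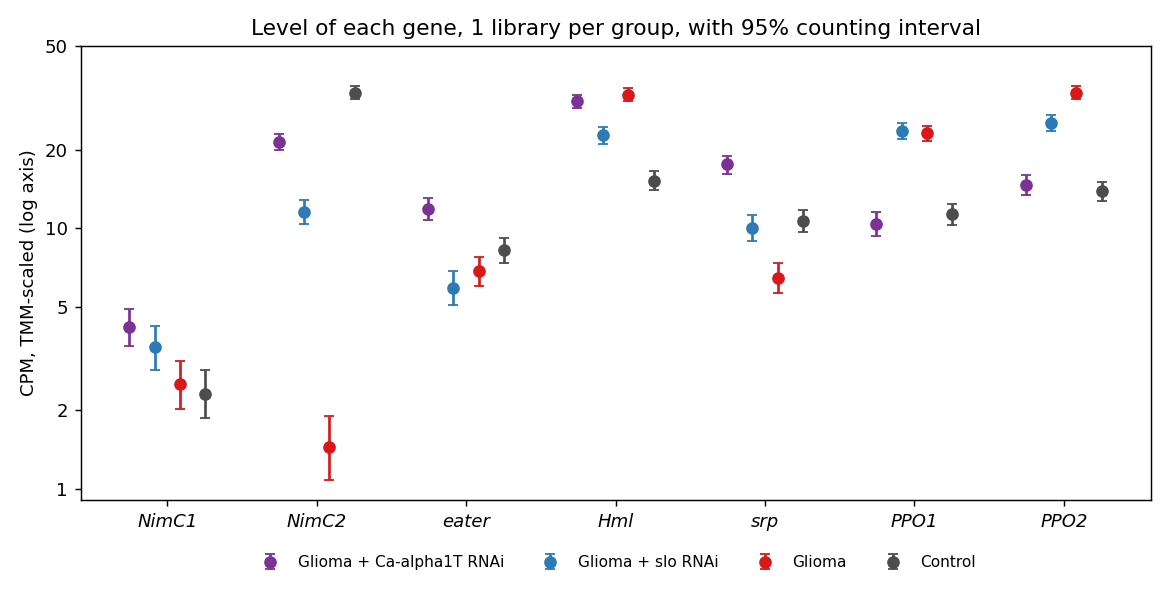
Level of each of the 7 genes in CPM on a log axis, 1 point per library with its exact 95% counting interval. NimC2 lies between 1.44 and 33.1 CPM, the widest spread of the 7, and PPO1 and PPO2 are both lower in Glioma with Ca-alpha1T RNAi and in Control than in the other two libraries.

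In Glioma against Control, the clotting gene Hml and both prophenoloxidase genes were about 2-fold higher, NimC2 was 22.9-fold lower on CPM, and NimC1, eater and srp stayed within 2-fold. Of the 7 genes 3 were called higher and 1 lower, where 15.9% of the 11410 detected genes were called in either direction, 10.1% higher and 5.81% lower. Their median log2 ratio was 0.12, against 0.00 over all detected genes. The 4 called genes thus did not share a direction. The calls of Hml and PPO1 rested near the 2-fold limit, and neither was called on total counts, FPKM or TPM. PPO2 was not called on FPKM or TPM.

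With Ca-alpha1T RNAi against Glioma, NimC2 and srp were called higher and PPO1 and PPO2 lower, where 11.8% of all detected genes were called, 4.93% higher and 6.88% lower. The median of the 7 was 0.72, against −0.01 over all detected genes. With slo RNAi against Glioma, NimC2 alone was called, and higher, where 11.2% of all detected genes were called, 4.43% higher and 6.8% lower. The median of the 7 there was 0.03, against −0.01 over all detected genes. These comparisons share the Glioma library with each other and with Glioma against Control, so a low or high count in Glioma moves all of them at once.

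Set against Control, Glioma with Ca-alpha1T RNAi had Hml as the 1 gene called, higher, where 10.2% of all detected genes were called, 6.05% higher and 4.15% lower. The Hml call was lost on FPKM and TPM. Glioma with slo RNAi had PPO1 called higher and NimC2 lower against Control, where the share of all detected genes was 13.3%, 7.31% higher and 5.95% lower. The PPO1 call was lost on total counts, FPKM and TPM. Between the RNAi libraries, eater was called higher and PPO1 lower in Glioma with Ca-alpha1T RNAi than in Glioma with slo RNAi, where 10.4% of all detected genes were called, 5.66% higher and 4.74% lower. The eater call was lost on FPKM and with a prior count of 5, and the PPO1 call on total counts, FPKM and TPM. On total counts and on TPM, NimC2, eater and srp were called higher and none lower.

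**Figure D2:**
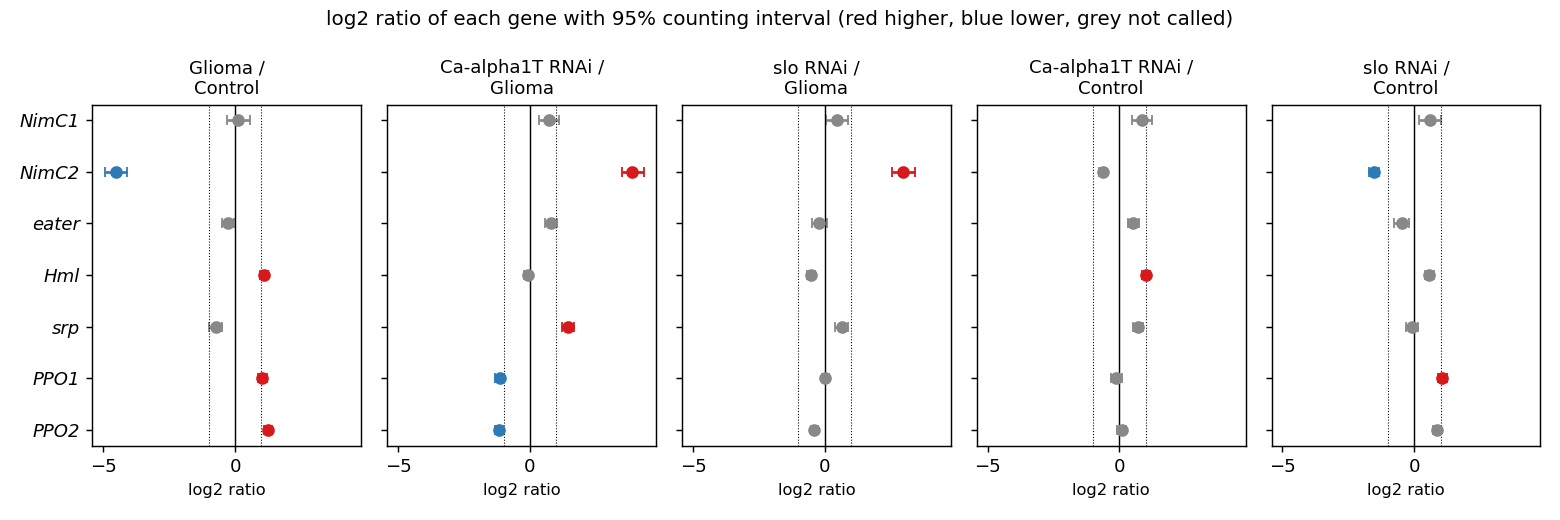
log2 ratio of each of the 7 genes in 5 comparisons, with exact 95% counting intervals and dotted lines at 2-fold. NimC2 lies at −4.51 in Glioma against Control and at 3.88 and 2.98 in the RNAi libraries against Glioma, while the ratios of the other 6 genes lie between −1.17 and 1.45.

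Among the genes of Nimrod-type receptors, NimC2 had the widest spread. It had 745 counts with Ca-alpha1T RNAi, 347 with slo RNAi, 51 in Glioma and 1300 in Control, or 21.4, 11.5, 1.44 and 33.1 CPM in that order. Glioma was the lowest library by a wide margin, Control the highest, and each step in the order of the 4 libraries lay beyond counting error. The log2 ratio was −4.51 (95% interval −4.95 to −4.11) for Glioma against Control, with 24 of the 11410 detected genes lower still. It was 3.88 (3.48 to 4.33) with Ca-alpha1T RNAi against Glioma, where 33 genes stood higher, and 2.98 (2.57 to 3.45) with slo RNAi against Glioma, where 48 stood higher. Against Control, NimC2 stayed lower with slo RNAi at −1.52 (−1.70 to −1.35) and lay at −0.63 (−0.76 to −0.50), not called, with Ca-alpha1T RNAi. The authors' deposited table gives it a signed fold of −22.7 for Glioma against Control, 14.8 for Ca-alpha1T RNAi against Glioma and 7.89 for slo RNAi against Glioma. For the 7 genes in 5 pairs of libraries, all 35 signs in the authors' deposited table match those found here, and the same 12 values reach 2-fold; both rest on the same libraries.

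NimC2 lies on chromosome 2L at 13980126 to 13983269 on the plus strand (dm6 coordinates). It has 3 annotated transcripts of 3 to 5 exons. The gene rk, which encodes a hormone receptor, overlaps it on the minus strand and the sources used here do not say whether counting used strand, so reads of the shared stretch could have gone to either gene. Counts of rk were 379 with Ca-alpha1T RNAi, 123 with slo RNAi, 206 in Glioma and 341 in Control, a much narrower range than that of NimC2.

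NimC1, which encodes a phagocytosis receptor known as the P1 antigen of plasmatocytes, was the scarcest of the 7 on FPKM in every library but Glioma, at 1.35 with Ca-alpha1T RNAi, 1.03 with slo RNAi and 0.837 in Control. It had 145 counts with Ca-alpha1T RNAi, 105 with slo RNAi, 89 in Glioma and 91 in Control, at 4.17, 3.48, 2.52 and 2.32 CPM. Glioma and Control did not differ beyond counting error, with a log2 ratio of 0.12 (−0.32 to 0.56) whose sign turned on total counts, FPKM and TPM. With Ca-alpha1T RNAi it lay at 0.72 (0.34 to 1.12) against Glioma and with slo RNAi at 0.46 (0.05 to 0.89), and neither reached 2-fold. NimC1 lies beside NimC2 on 2L, at 13973158 to 13976769 on the minus strand. In Glioma against Control the log2 ratio of NimC2 minus that of NimC1 was −4.63 (95% interval −5.21 to −4.04, by a normal approximation).

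The gene eater encodes a Nimrod-related receptor through which plasmatocytes bind bacteria. It had 413 counts with Ca-alpha1T RNAi, 178 with slo RNAi, 241 in Glioma and 323 in Control, at 11.9, 5.90, 6.83 and 8.22 CPM. Glioma with Ca-alpha1T RNAi was the highest library, and Glioma and Glioma with slo RNAi lay within counting error of each other. The largest ratio was that of Ca-alpha1T RNAi against slo RNAi at 1.01 (0.75 to 1.27), at the 2-fold limit. Ca-alpha1T RNAi against Glioma gave 0.80 (0.57 to 1.03) and Glioma against Control −0.27 (−0.52 to −0.02). The gene lies on 3R at 27095867 to 27099679, minus strand.

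Hml encodes hemolectin, a large secreted clotting protein made by hemocytes and widely used as their marker. It had 1066 counts with Ca-alpha1T RNAi, 686 with slo RNAi, 1149 in Glioma and 598 in Control, at 30.7, 22.8, 32.5 and 15.2 CPM. Control was the lowest library and all 3 glioma libraries lay above it beyond counting error. The log2 ratio was 1.10 (0.95 to 1.24) for Glioma against Control, 1.01 (0.86 to 1.16) for Ca-alpha1T RNAi against Control and 0.58 (0.42 to 0.74) for slo RNAi against Control. Glioma and Glioma with Ca-alpha1T RNAi did not differ beyond counting error at −0.09 (−0.21 to 0.04), a sign that turned on total counts, FPKM and TPM. With slo RNAi the ratio against Glioma was −0.52 (−0.65 to −0.38). Hml lies on 3L at 13846054 to 13860001, plus strand, and its 26 exons give a transcript of 11756 bases, so its FPKM was low beside its counts.

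Hml and eater, both plasmatocyte genes, did not keep one proportion to each other. The ratio of eater to Hml on FPKM was 1.38 with Ca-alpha1T RNAi, 0.922 with slo RNAi, 0.746 in Glioma and 1.92 in Control. In Glioma against Control the log2 ratio of Hml exceeded that of eater by 1.36 (1.08 to 1.64), and with Ca-alpha1T RNAi against Glioma the same difference was −0.88 (−1.14 to −0.63). A difference of this kind within the same pair of libraries does not depend on how the libraries are scaled.

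The GATA factor gene srp was highest with Ca-alpha1T RNAi and lowest in Glioma. It had 610 counts with Ca-alpha1T RNAi, 303 with slo RNAi, 227 in Glioma and 420 in Control, at 17.5, 10.1, 6.43 and 10.7 CPM. Glioma with slo RNAi and Control lay within counting error of each other. The log2 ratio was 1.45 (1.23 to 1.67) for Ca-alpha1T RNAi against Glioma, 0.64 (0.39 to 0.90) for slo RNAi against Glioma and −0.73 (−0.97 to −0.50) for Glioma against Control. Only the first of these 3 was called, and it stayed at or above 1.23 under each alternative scaling, unit and prior count. The gene lies on 3R at 15986152 to 16004085, plus strand, and lncRNA:CR44133 overlaps it on the same strand with 18 to 94 counts a library.

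The fat body also expresses srp. The summed level of its 7 markers was likewise lowest in Glioma, while the remaining libraries came in a different order from that of srp. Their summed level was 14701 CPM with Ca-alpha1T RNAi, 22571 CPM with slo RNAi, 9230 CPM in Glioma and 17132 CPM in Control. All 7 markers had log2 ratios below 0 in Glioma against Control, as srp did. Set against Glioma, 5 of the 7 lay above 0 in the Ca-alpha1T RNAi library. In the slo RNAi library all 7 did, and srp lay above 0 in both. Of the 7, 3 were called lower in Glioma against Control, 2 higher with Ca-alpha1T RNAi against Glioma and 6 higher with slo RNAi against Glioma. Over all detected genes the shares were 5.81% lower, 4.93% higher and 4.43% higher in the same order of comparisons. The 1 comparison of these in which srp was called was Ca-alpha1T RNAi against Glioma. No marker of these lists was at 0 in any library. Their part in the srp values was not tested. Of 4 other GATA factor genes, pnr and grn, which act in epidermal and neural patterning, were called lower in Glioma than in Control at −1.06 and −1.45. GATAd and GATAe were not called there, and 5.81% of all detected genes were called lower. With Ca-alpha1T RNAi against Glioma, grn was called higher at 1.38 and pnr lay at 0.75, not called.

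The prophenoloxidase genes PPO1 and PPO2 encode the enzyme precursors stored in crystal cells. PPO1 had 362 counts with Ca-alpha1T RNAi, 711 with slo RNAi, 816 in Glioma and 443 in Control, at 10.4, 23.6, 23.1 and 11.3 CPM. These formed a low pair and a high pair, each within counting error: Glioma with Ca-alpha1T RNAi and Control were low, and Glioma and Glioma with slo RNAi were high. PPO1 had log2 ratios of 1.03 (0.87 to 1.21) for Glioma against Control, −1.15 (−1.33 to −0.97) for Ca-alpha1T RNAi against Glioma and 0.03 (−0.12 to 0.18) for slo RNAi against Glioma. Against Control it stood at 1.06 (0.89 to 1.24) with slo RNAi and at −0.12 (−0.32 to 0.09) with Ca-alpha1T RNAi, where the sign turned on TPM.

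PPO2 had 510 counts with Ca-alpha1T RNAi, 763 with slo RNAi, 1168 in Glioma and 544 in Control, at 14.7, 25.3, 33.1 and 13.9 CPM. Glioma was the highest library, Glioma with slo RNAi came next, and Glioma with Ca-alpha1T RNAi and Control lay within counting error of each other. The log2 ratio was 1.26 (1.11 to 1.41) for Glioma against Control, −1.17 (−1.33 to −1.02) for Ca-alpha1T RNAi against Glioma and −0.39 (−0.52 to −0.25) for slo RNAi against Glioma. The calls of PPO1 and PPO2 as lower with Ca-alpha1T RNAi were lost on total counts, FPKM and TPM, with every ratio still below 0. PPO1 lies on 2R at 17887220 to 17889973 and PPO2 on 2R at 9042261 to 9044709, both on the minus strand. The potassium channel gene Elk overlaps PPO1 on the plus strand, with 253 to 353 counts a library.

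On FPKM the ratio of PPO2 to PPO1 was 1.44 with Ca-alpha1T RNAi, 1.10 with slo RNAi, 1.47 in Glioma and 1.26 in Control. The log2 ratios of PPO2 and PPO1 did not differ beyond counting error in Ca-alpha1T RNAi against Glioma (−0.02, −0.26 to 0.21). In slo RNAi against Glioma that of PPO2 was lower (−0.42, −0.61 to −0.22). PPO3, the lamellocyte prophenoloxidase gene, was scarce, with 32 counts with Ca-alpha1T RNAi, 22 with slo RNAi, 8 in Glioma and 17 in Control. It was called higher with Ca-alpha1T RNAi against Glioma at 1.96 (0.87 to 3.35), where both crystal cell genes were lower, and higher with slo RNAi against Glioma at 1.62 (0.47 to 3.06).

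The gene lz, a RUNX factor needed to form crystal cells, lay below Control in Glioma, where PPO1 and PPO2 lay above it. It had 232 counts with Ca-alpha1T RNAi, 111 with slo RNAi, 143 in Glioma and 273 in Control. Its log2 ratio was −0.78 (−1.08 to −0.48) for Glioma against Control and 0.72 (0.41 to 1.03) for Ca-alpha1T RNAi against Glioma, neither called. The gene lz is also expressed in the eye disc, a tissue of the larval head. Of all detected genes, 15.9% were called in Glioma against Control and 11.8% with Ca-alpha1T RNAi against Glioma. None of the 5 further crystal cell genes, of which lz is one, was called in these comparisons, with medians of −0.78 and 0.51. They did not share a direction in Glioma against Control: klu stood at −0.90 and peb at −0.79, while CG17109 stood at 0.58 (0.39 to 0.78) and CG10469 at 0.41 (0.12 to 0.70), on the same side as PPO1 and PPO2. CG10469 was named after its values were seen. With slo RNAi against Glioma CG17109 was the 1 called, lower at −1.54, with a list median of −0.14, where 6.8% of all detected genes were called lower. Nothing particular to crystal cell genes is read from such small counts.

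Muscle markers lay above Control in Glioma and below Glioma with Ca-alpha1T RNAi, as both prophenoloxidase genes did. All 8 were called higher in Glioma against Control, median 1.77, all 8 lower with Ca-alpha1T RNAi against Glioma, median −1.43, and 2 lower with slo RNAi against Glioma, median −0.79. Over all detected genes the shares were 10.1% higher, 6.88% lower and 6.8% lower in the same order. These muscle calls are those on TMM scaling. With Ca-alpha1T RNAi against Glioma the 8 ratios ran from −1.57 to −1.18, so the smaller ones lay near the 2-fold limit. The muscle markers summed to 19932 CPM with Ca-alpha1T RNAi, 31738 CPM with slo RNAi, 53289 CPM in Glioma and 15205 CPM in Control. This was the order of libraries of PPO2, whose Control and Ca-alpha1T RNAi values lay within counting error, and not that of PPO1. With slo RNAi against Glioma, PPO1 lay at 0.03 (−0.12 to 0.18), while the 8 muscle ratios ran from −1.17 to −0.43. The part of the muscle markers in the PPO values was not tested.

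The genes whose levels ran most like each of these were found by the root mean square difference of log2 CPM over the 4 libraries. Levels were first centred on each gene's mean. The search took in 5903 genes with at least 50 counts in each library. Genes whose symbol is a CG or CR number or starts with an RNA class were left out. NimC3, with 31 counts in Glioma, was below the count limit. For PPO2 they were Mp20, a muscle protein gene, at 0.030, the glycolytic gene Ald1 at 0.057 and Skeletor at 0.059. For PPO1 they were the cytochrome P450 gene Cyp12b2 at 0.044 and the glycolytic genes Eno at 0.071 and Pglym78 at 0.11. For srp they were Ppa at 0.047, lmgB at 0.052 and Cul6 at 0.088. Hml had Cyp317a1 at 0.062, the adenylyl cyclase gene Ac78C at 0.068 and Swim at 0.082, and eater had mthl15 at 0.064, the peptide gene Mip at 0.072 and pre-mod(mdg4)-I at 0.095. With 4 libraries such likeness is common: 50 to 235 of the genes searched lay within 0.25 of each of these 5 genes. None of the genes searched came within 0.25 of NimC2, whose nearest were the fat body gene Fbp1 at 0.46, hll at 0.57 and the ecdysone-induced gene Eig71Ee at 0.61. The 6 salivary glue genes, set beside NimC2, summed to 1319 CPM with Ca-alpha1T RNAi, 9782 CPM with slo RNAi, 956 CPM in Glioma and 21986 CPM in Control. With Ca-alpha1T RNAi against slo RNAi all 6 were called lower, median −2.91, beside 4.74% of all detected genes. NimC2 lay at 0.90 (0.71 to 1.08) there, so the order of the RNAi libraries differed. The part of the glue genes in the NimC2 values was not tested.

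NimC1 and NimC2 belong to a cluster of 10 Nimrod genes that spans 91.3 kb of chromosome 2L, of which 9 were listed. NimC2 was not alone there in being low in Glioma. NimC3, a further receptor gene of the C group, had 147 counts with Ca-alpha1T RNAi, 60 with slo RNAi, 31 in Glioma and 104 in Control. Its log2 ratio was −1.58 for Glioma against Control, 2.25 (1.70 to 2.88) for Ca-alpha1T RNAi against Glioma and 1.17 (0.53 to 1.86) for slo RNAi against Glioma, and all 3 were called. NimB5, which encodes a secreted member, stood at −1.09, 1.51 and 1.65 in the same order of comparisons, all called. On the opposite strand, He overlaps NimB5 and asRNA:CR44849 overlaps NimC3. Reads of these shared stretches, as with NimC2 and rk, could have gone to either gene.

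NimA stood at −1.33 in Glioma against Control and at 1.29 with Ca-alpha1T RNAi against Glioma, both called, and at 0.26 with slo RNAi. NimB1 lay at 1.40 with Ca-alpha1T RNAi against Glioma, called, and at 0.65 in Glioma against Control, not called. NimB2, NimB3 and NimB4, which stand between NimB1 and NimB5, were called in none of these 3 comparisons. Neighbouring genes of the cluster thus differed, as the plot of the Nimrod cluster shows. With drpr, the engulfment receptor gene of glia and macrophages, the 8 other Nimrod family genes had none higher and 3 lower in Glioma against Control, median −0.11. They had 4 higher and none lower with Ca-alpha1T RNAi against Glioma, median 0.78, and 2 higher and none lower with slo RNAi against Glioma, median 0.48. Over all detected genes, as above, 5.81% were called lower in Glioma against Control, 4.93% higher with Ca-alpha1T RNAi against Glioma and 4.43% higher with slo RNAi against Glioma.

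**Figure D3:**
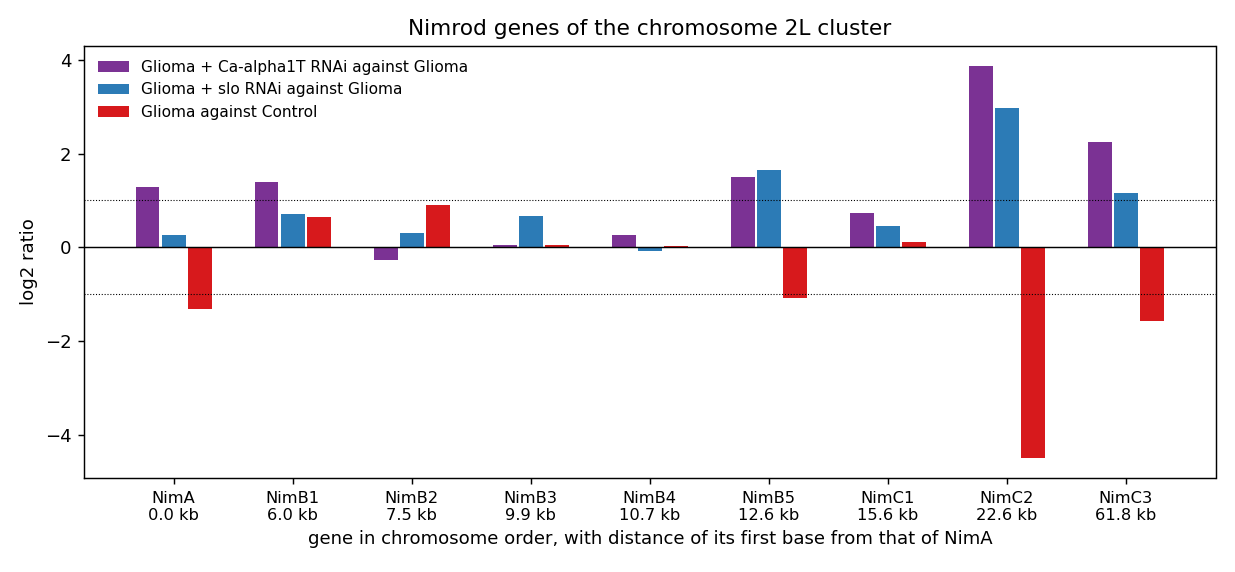
log2 ratios of the 9 listed Nimrod genes of the chromosome 2L cluster in gene order, with the distance of each gene's first base from that of NimA, bars from 0 and dotted lines at 2-fold. NimC2 and NimC3, at 22.6 and 61.8 kb, and NimB5, at 12.6 kb, are low in Glioma against Control and high in both RNAi libraries against Glioma, while NimB2, NimB3 and NimB4 stay within 2-fold.

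Other plasmatocyte genes went in both directions in Glioma against Control. Of the 11, 2 were called higher and 1 lower, with a median of −0.03, where 10.1% of all detected genes were called higher and 5.81% lower, and nothing particular to these genes is read from such small counts. Nplp2 was higher at 2.28 and the scavenger receptor gene Sr-CI at 1.36, while gcm, a transcription factor gene of both embryonic hemocytes and glia, was lower at −1.67. Pxn, the peroxidasin gene of hemocytes, had 1397 counts with Ca-alpha1T RNAi, 957 with slo RNAi, 1587 in Glioma and 1168 in Control and was named after its values were seen. He, the hemese gene, had 301, 257, 172 and 195 counts in the same order, and lay at 0.83 with Ca-alpha1T RNAi against Glioma and 0.81 with slo RNAi against Glioma, not called. None of the 11 was called in either RNAi library against Glioma, where the medians were 0.34 for the Ca-alpha1T construct and 0.16 for the slo construct. Over all detected genes 11.8% and 11.2% were called in the same order. With a list of 11, no call is not read as particular to these genes.

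The list of lamellocyte genes had 1 of 6 called in each of the 3 comparisons, near the 15.9%, 11.8% and 11.2% of all detected genes called in Glioma against Control, with Ca-alpha1T RNAi against Glioma and with slo RNAi against Glioma. It was atilla in Glioma against Control, at 1.45 (1.36 to 1.55), and PPO3 in both RNAi libraries. As given above, PPO3 passed the count limit there only through the RNAi libraries. The integrin gene ItgaPS4 lay at 0.85 in Glioma against Control, 0.87 with Ca-alpha1T RNAi against Glioma and 0.75 with slo RNAi against Glioma, none called. None of the 11 lymph gland and progenitor genes and none of the 3 genes for the blood cell growth factors Pvf1, Pvf2 and Pvf3 was called in these 3 comparisons. The growth factor medians were −0.52 in Glioma against Control, 0.59 with Ca-alpha1T RNAi against Glioma and 0.30 with slo RNAi against Glioma.

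The genes Sr-CII, Sr-CIII and Sr-CIV, of the same scavenger receptor class as Sr-CI, were scarce. Sr-CIII had 41 counts in Glioma and 6 in Control, a log2 ratio of 2.82 (1.68 to 4.45). Sr-CIV had 36 counts with Ca-alpha1T RNAi and 9 in Glioma, at 1.96 on the log2 scale (0.94 to 3.26), and Sr-CII had 30 and 13, at 1.20 (0.25 to 2.29). With slo RNAi Sr-CII had 2 counts, a log2 ratio against Glioma of −2.23 (−5.66 to −0.33). In all, 1 of 9 phagocytosis and opsonin genes was called higher in Glioma against Control, near the 10.1% of all detected genes. There were 2 of 9 called higher with Ca-alpha1T RNAi against Glioma, beside 4.93% of all detected genes, and 1 of 8 lower with slo RNAi against Glioma, beside 6.8%. Sr-CIII in Glioma against Control, Sr-CIV with Ca-alpha1T RNAi and Sr-CII with slo RNAi met the limit of 10 counts only through their higher library. With at least 50 counts required, the list median with Ca-alpha1T RNAi against Glioma turned from 0.15 to −0.14. Nothing is read from these calls.

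Of the 3 clotting genes, Tg, the transglutaminase gene that crosslinks the clot, was called higher in Glioma than in Control at 1.42 (1.31 to 1.53), in the same direction as Hml. The clotting gene fon lay at −0.04 there and was called higher with slo RNAi against Glioma at 1.00, at the 2-fold limit. The third, Tig, lay at 0.81 in Glioma against Control and was called in neither comparison. Over all detected genes 10.1% were called higher in Glioma against Control and 4.43% with slo RNAi against Glioma. Of the 15 genes of the melanization cascade, 1 was called higher and 2 lower in Glioma against Control, beside 10.1% and 5.81% of all detected genes, again small counts, with a median of 0.01 whose sign turned on total counts, FPKM and TPM. The tyrosine hydroxylase gene ple, which supplies the melanin precursor and also acts in the cuticle and in neurons, stood at −4.05 there, yellow-f at −1.11 and yellow-f2 at 1.14. With Ca-alpha1T RNAi against Glioma ple was higher at 2.01 and SPE, a protease gene, lower at −1.02. With slo RNAi against Glioma ple and Ddc were lower at −1.62 and −1.02. The genes Hayan, MP1 and Sp7, whose proteases act upstream of phenoloxidase, had ratios within 2-fold in all 3 comparisons (chosen after their values were seen).

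**Figure D4:**
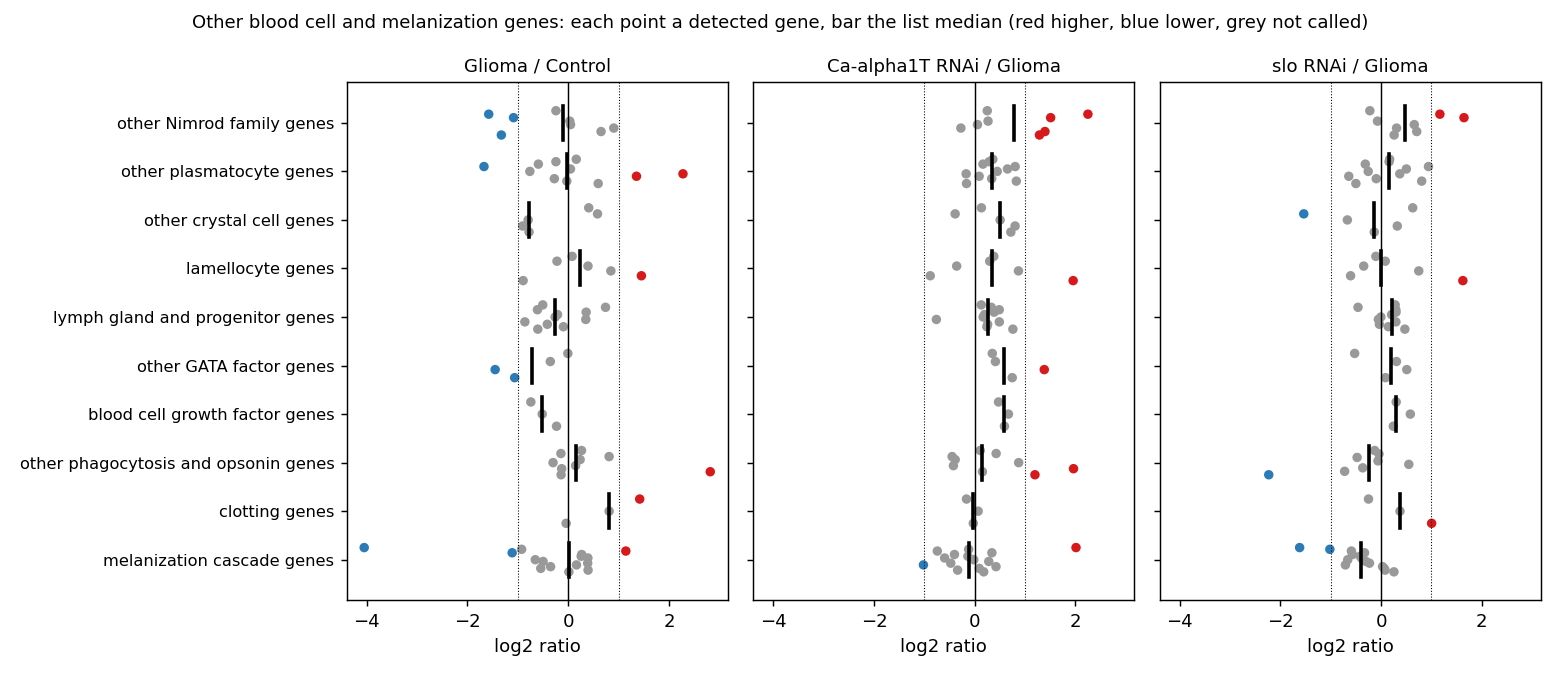
log2 ratios of the other blood cell and melanization genes in 3 comparisons, 1 point per detected gene, with a bar at each list's median and dotted lines at 2-fold. In Ca-alpha1T RNAi against Glioma the other Nimrod family genes have 4 of 8 called higher, median 0.78, while the other plasmatocyte genes have none called of 11, median 0.34. Over all detected genes 4.93% are called higher there and 6.88% lower.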

How the data were processed

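The 4 larval head libraries, 1 a group, were poly-A selected. The authors deposited whole-number read counts, FPKM and TPM, per the file headers. They also deposited, for 5 library pairs, a signed fold score, a mean log2 CPM and raw and adjusted p-values, per the file headers. The p-values and the mean were not used. HISAT2 2.1.0, StringTie 2.1.3b, Trimmomatic 0.38, FastQC 0.11.7, edgeR and the build dm6 are listed in the submitters' processing notes without roles. Use of strand, and the handling of reads matching several genes, are not given in the sources used here. No gene has a 0 in any library.

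TMM factors (edgeR 4.0.16, R 4.3.3) gave scaled CPM. log2 ratios used a prior count of 0.5, with exact conditional binomial 95% intervals (Python 3.11.15, scipy 1.17.1). These cover counting error only, since each group has 1 library. They also take reads as independent, which PCR copies are not. Intervals of differences between 2 log2 ratios used a normal approximation. All 6 pairs of libraries were compared over the whole table. The code was tested on simulated counts. Positions came from Ensembl's annotation in dm6 coordinates. Alternatives were DESeq2 1.42.0 size factors, total counts, FPKM or TPM with a pseudocount of 1, a prior count of 5, no filter, at least 50 counts, and 4-fold. Named genes were the 7 listed members, up to 3 per list with the largest absolute ratio in each of 3 comparisons, and 3 nearest in pattern for each member whose log2 CPM spanned at least 1. The pattern search used genes with at least 50 counts in every library and left out symbols that are CG or CR numbers or start with an RNA class. The members and lists were chosen with earlier results of these data known.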

Additional observations from a re-analysis of the deposited data

How the results depend on the processing

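NimC2 was called in Glioma against Control and in both RNAi libraries against Glioma under all 8 alternatives, at −4.73 to −3.08, 2.54 to 4.15 and 1.58 to 3.03. No called ratio of the 7 genes changed sign, and 7 uncalled values did, for NimC1, Hml and PPO1 as named above. The other calls lay nearer to 2-fold, and the scaling or unit moved several past it. In Glioma against Control 4 genes were called, against 2 on total counts and 1 on FPKM, on TPM and at 4-fold. With Ca-alpha1T RNAi against Glioma 4 were called, against 2 on FPKM and on TPM and 1 at 4-fold, while on total counts eater was called higher and neither prophenoloxidase gene was called. Against Control, the 1 gene called with Ca-alpha1T RNAi became 0 on FPKM, on TPM and at 4-fold, and the 2 with slo RNAi became 1 on total counts, FPKM and TPM and 0 at 4-fold. Between the RNAi libraries 2 became 1 with a prior count of 5 and 0 on FPKM and at 4-fold, while on total counts and on TPM they became 3, all higher (NimC2, eater and srp). FPKM with a pseudocount understates ratios of scarce genes, and 4-fold is stricter by construction. In the medians of lists in these comparisons the sign turned for phagocytosis genes (0.15 to −0.08 on total counts, Glioma against Control) and for clotting and melanization genes (−0.03 to 0.25 and −0.12 to 0.16, Ca-alpha1T RNAi against Glioma), among others. DESeq2 size factors, no filter and at least 50 counts changed no call of the 7. On total counts the median over all detected genes was −0.22 in Glioma against Control, where 46.3% of calls were then higher in place of 63.5%, and 0.26 with Ca-alpha1T RNAi against Glioma, with 67.3% in place of 41.7%. The share higher was then 41.5% in place of 55.2% for slo RNAi against Control, and 70.6% in place of 54.4% between the RNAi libraries, a difference seen on TPM too (41.4%, 80.2%, 35.9% and 80.1% in the same order). Over the whole table, total counts gave 1024 genes lower in place of 663 in Glioma against Control, and 975 higher and 473 lower in place of 562 and 785 with Ca-alpha1T RNAi against Glioma. FPKM gave 496 higher in place of 1153 and 270 lower in place of 785 in the same comparisons. No paired analysis was possible because each group has 1 library. With 1 library a group, leaving one out was not possible either.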
